A study of Mus musculus with 24 samples.

Results

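Crhr2 encodes the type 2 receptor for corticotropin-releasing factor, the receptor through which urocortins act on the heart. The gene was chosen from an earlier look at these data for its fall 45 min after a sham surgery, so its values at that time are a description and carry no test. It is 1 transcript, uc009cam.2, of 63758 listed in the count matrix and of 8940 that had enough reads to be tested. Symbols were available for the 1209 transcripts that the study had selected as changing. Other Crhr2 identifiers in the matrix could therefore not be looked for, and the values are those of this transcript. The other comparisons of Crhr2 share mice with the one that chose it, and no p value is given for any of them.

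The hearts came from 24 male C57BL/6J mice (C57BL/6 in the labels) aged 8 to 12 weeks, 8 mice for each of 3 times, and each mouse gave 1 library. Under pentobarbital and buprenorphine, the chest was opened, and a suture was passed under the left anterior descending artery and was not tied. Myocardium of the left ventricle was taken at 0 min, at 45 min, or at 24 h after the surgery, the last group having woken with a closed chest. All 24 mice had the anesthesia, the opioid and the opened chest, so 0 min is the start of the series after surgery and not a heart without surgery. Polyadenylated RNA was sequenced from a whole piece of tissue, where fewer cells of a type and less RNA per cell cannot be told apart.

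The receptor belongs to the class of G protein-coupled receptors that bind peptide hormones. It couples mainly to Gs, raises cyclic AMP and activates protein kinase A, and in rodents it is the main receptor of its family in the heart and in blood vessels. Urocortins given to animals relax vessels and make the heart beat with more force. The peptides of the family (Crh, Ucn, Ucn2, Ucn3), the other receptor (Crhr1) and the binding protein (Crhbp) were not analysed here, because symbols were available for 1209 transcripts and these 6 genes were not among them.

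In GRCm38, Crhr2 lies on chromosome 6 from 55090049 to 55133016 on the minus strand, between Gars and Gm34358, with 0 other annotated genes overlapping it. GENCODE M21 lists 9 transcripts, of which 5 are protein coding, 1 is a target of nonsense-mediated decay and 3 retain an intron. Of the 9, 4 start near the upstream end of the gene and 4 near a second start further downstream. The deposited identifier does not say which exons were counted, so the counts could not be divided between the starts.

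The 250 bases before the upstream start are shown because RefSeq lists this start for the gene. They run 5′ to 3′ on the minus strand of GRCm38.p6 (chr6:55133017-55133266), and the capitals mark the TATAAA box, whose first base lies 39 bases before the start.
Crhr2 promoter: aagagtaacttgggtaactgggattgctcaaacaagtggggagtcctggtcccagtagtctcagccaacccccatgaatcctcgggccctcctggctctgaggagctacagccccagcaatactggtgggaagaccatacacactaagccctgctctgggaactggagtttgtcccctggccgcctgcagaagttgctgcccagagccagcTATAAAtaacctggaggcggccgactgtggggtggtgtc

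The TATAAA box was present in 12.4% of 32851 mouse promoters of the same length, searched on both strands. The window also held 2 copies of TGGGAA, the core bound by the Notch factor RBPJ, starting 124 and 94 bases before the start (21.6% of promoters held at least one), and 1 E-box, CANNTG (66.2% of promoters). The cAMP response element TGACGTCA and its part TGACG were not found in this window, and 1.55% and 17.8% of promoters held them. The glucocorticoid response element was not found either, and 0.387% of promoters held it. These are matches of letters, and binding was not measured.

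Crhr2 was highest at 0 min, lowest at 45 min and intermediate at 24 h. At 0 min, the level in CPM (read counts scaled to the size of the library) was 2.15 in the lowest mouse, 2.41 at the median and 4.30 in the highest, with a mean of 2.67 ± 0.703 (SD, n = 8). At 45 min, it was 0.712 in the lowest mouse, 0.960 at the median and 1.36 in the highest, with a mean of 1.01 ± 0.192 (SD, n = 8). At 24 h, it was 0.951, 1.31 and 1.99, with a mean of 1.38 ± 0.402 (SD, n = 8). Every mouse at 45 min and at 24 h was below every mouse at 0 min, as was the case for 0.0671% and 0.649% of all transcripts tested, while the levels at 45 min and 24 h overlapped, with 4 of the 8 mice at 24 h above all mice at 45 min.

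**Figure D1:**
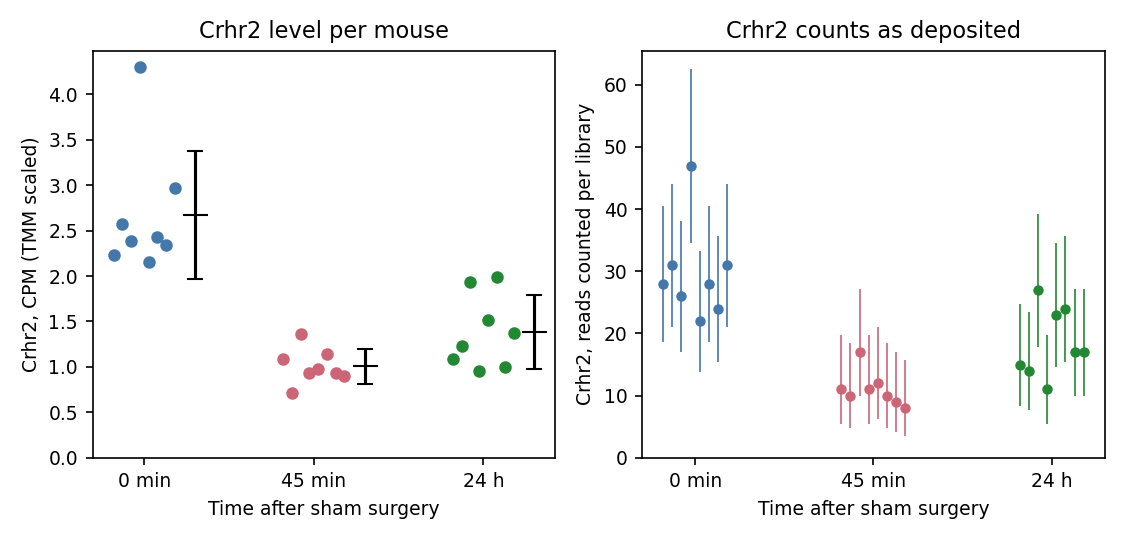
Crhr2 in each of the 24 hearts (points) by time after sham surgery. On the left, CPM with the mean and SD of each group of 8 beside the points, where the highest mouse at 45 min (1.36) is below the lowest at 0 min (2.15). On the right, the reads counted in each library with exact 95% Poisson intervals, which cover counting error.

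The receptor transcript was counted by few reads. The 8 libraries at 0 min held 22 to 47 reads each and 237 in all (95% exact Poisson interval 208 to 269), those at 45 min 8 to 17 and 88 in all (70.6 to 108), and those at 24 h 11 to 27 and 148 in all (125 to 174). These intervals cover counting error and not the spread between mice. The coefficient of variation of the CPM, in the order of the times, was 26.3%, 19.1% and 29.1%, where counting alone gives 18.4%, 30.2% and 23.2%. A difference between the mice of the 45 min group was therefore not detectable at this depth.

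The level at 45 min was 37.9% of that at 0 min, a log2 fold change of −1.40 (SE 0.21), or 2.64-fold lower. This change ranked 14 in size among the 4319 transcripts with a lower level at 45 min. The level at 24 h was 52.0% of that at 0 min, a log2 fold change of −0.94 (SE 0.20), or 1.92-fold lower, and it ranked 189 among 4432 transcripts with a lower level. From 45 min to 24 h, the log2 fold change was 0.46 (SE 0.21), or 1.37-fold higher, and 32.6% of the fall at 45 min, on the log2 scale, had been regained by 24 h. The median transcript changed by 0.01, 0.00 and 0.03 on the log2 scale in these 3 comparisons.

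The mouse with the highest level, replicate 4 at 0 min (4.30 CPM), stood apart from the next at 2.97 CPM. Without it, the log2 fold change was −1.26 at 45 min and −0.83 at 24 h. The separation of 24 h from 0 min also rested on the scaling of the libraries, since with library totals alone 5 of the 8 mice at 24 h were below all mice at 0 min, while all 8 at 45 min still were. On that scale, which was added after the data had been seen, the ratio of the means was −1.56 on the log2 scale at 45 min, −0.75 at 24 h and 0.81 from 45 min to 24 h.

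**Figure D2:**
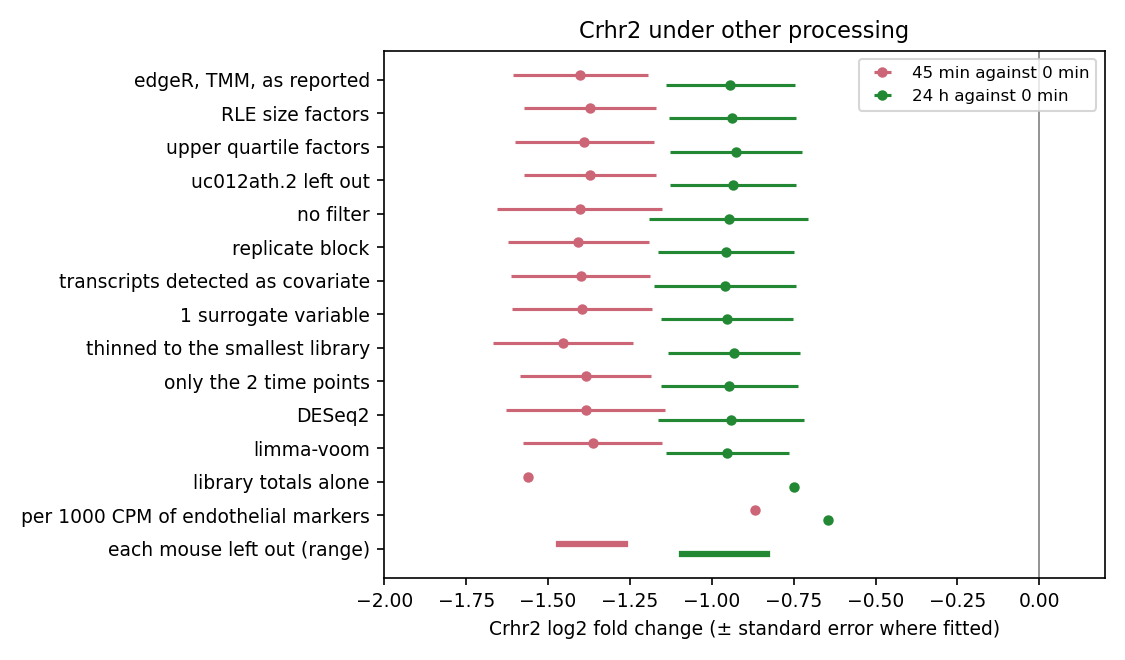
Log2 fold change of Crhr2 at 45 min and 24 h, each against 0 min, under each processing alternative (points, with standard errors where a model was fitted), and the range with each of the 24 mice left out in turn (thick lines). Every point is below 0, and the smallest changes, −0.87 at 45 min and −0.64 at 24 h, are those of Crhr2 divided by the endothelial markers.

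Of all 8940 transcripts tested, 6 (0.0671%) had every mouse at 45 min below every mouse at 0 min and at least 10 reads on average in the higher group. All 6, Crhr2 among them, had a symbol. The other 5 were Fam102a, Eno1 (the glycolytic enzyme enolase), Dll1 (a ligand of Notch receptors), Adrb1 (the main beta-adrenergic receptor of cardiomyocytes) and Klhl6. As they were chosen for the same fall, their values at 45 min are again a description.

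Adrb1 had a mean of 25.0 ± 3.98 CPM at the start, which was 16.8 ± 1.91 after 45 min and 21.8 ± 7.49 after 24 h (SD, n = 8 each). Dll1 was at 8.90 ± 1.95, 5.01 ± 0.588 and 9.57 ± 1.92 CPM at the same times. Fam102a was at 28.5 ± 3.01, 13.7 ± 2.31 and 27.2 ± 3.55 CPM. In each of these 3 transcripts, mice at 24 h and 0 min overlapped.

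Eno1 was at 3.08 ± 0.633, 1.50 ± 0.445 and 3.50 ± 0.625 CPM, and Klhl6 at 8.36 ± 0.524, 5.93 ± 1.19 and 9.78 ± 1.99 CPM. Eno1 has near-identical copies in the mouse genome between which reads may have been divided, so its value is uncertain. On the log2 scale, the changes at 45 min were −1.06 for Fam102a, −1.03 for Eno1, −0.82 for Dll1, −0.57 for Adrb1 and −0.50 for Klhl6. Against 0 min at 24 h they were −0.07, 0.19, 0.10, −0.20 and 0.23, beside −0.94 for Crhr2.

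Among the 6, Crhr2 had the largest change at both times on the log2 scale, and in CPM it was the one with no overlap between 24 h and 0 min. It had been chosen for its fall, which favors a large change at 45 min. With library totals alone, 5 of its 8 mice at 24 h were below all mice at 0 min. The 3′ untranslated region of transcript Crhr2-201 was 1229 bases long and held 1 copy of ATTTA, the core of AU-rich elements, where 65% of 20852 genes had at least as many. The counts were 3 in Dll1 and in Adrb1, 1 in Klhl6 and 0 in Fam102a and Eno1.

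**Figure D3:**
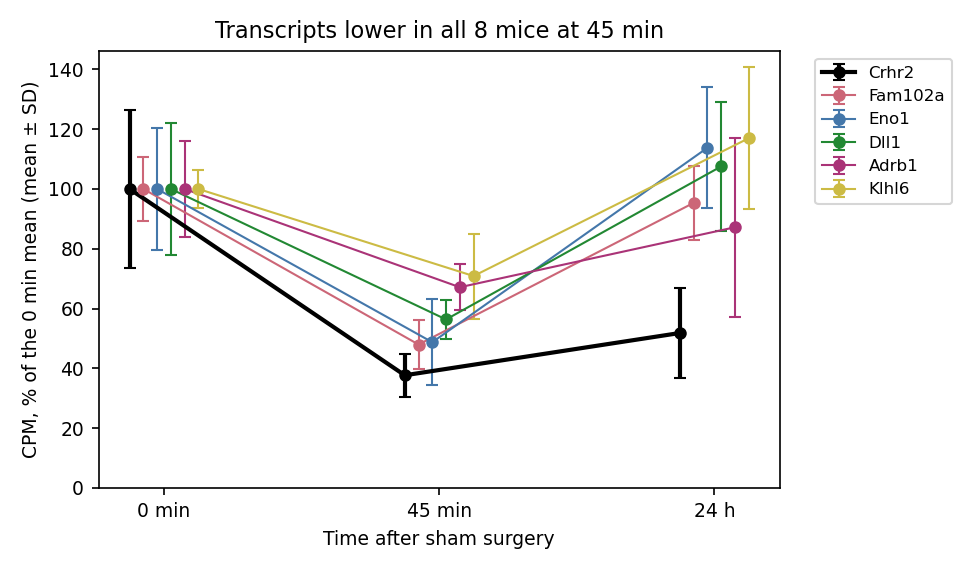
Mean CPM ± SD (n = 8) of the 6 transcripts whose mice at 45 min were all below those at 0 min, as a percent of each transcript's mean at 0 min. Crhr2 (thick black line) is at 37.9% at 45 min by the fitted fold change and 52.0% at 24 h, while the mice of the other 5 overlap with those of 0 min at 24 h.

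The likeness of other transcripts to Crhr2 was measured by Pearson's r of log2(CPM + 0.5) over the 24 mice, as a description with no p. The mice came from different time points, so r holds the difference between the times as well as the spread within them. Over 8939 transcripts, r ran from −0.79 to 0.75 with a median of 0.02. The 5 transcripts with a symbol and the highest r were Bcl6b (0.75, rank 1 of all), a transcriptional repressor of endothelial cells, Nrarp (0.71, rank 2), a target and inhibitor of Notch signaling, Dusp6 (0.68, rank 5), a phosphatase that inactivates ERK, D830013O20Rik (0.63, rank 9) and Gm15663 (0.63, rank 10). Bcl6b was at 49.8 ± 10.7, 25.2 ± 6.48 and 32.0 ± 4.67 CPM in the order of the times, and Nrarp at 21.5 ± 4.94, 9.45 ± 2.25 and 13.6 ± 1.94 CPM. Both thus had their lowest mean at 45 min and an intermediate one at 24 h, as Crhr2 had.

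The lowest r among transcripts with a symbol belonged to Cxcl1 (−0.79), a chemokine for neutrophils, Sema7a (−0.76), a semaphorin, Socs3 (−0.75), an inhibitor of JAK-STAT signaling, Ifi205 (−0.74), an interferon-inducible gene, and Has1 (−0.73), a hyaluronan synthase. The mean of Cxcl1 went from 1.73 CPM to 23.2 and then 7.08 in the same order. Without the 2 mice whose Crhr2 lay farthest from its median, replicates 4 and 8 at 0 min, these 10 values of r kept their sign, with 0.69 for Bcl6b and −0.78 for Cxcl1.

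When the mean of each time point was removed, which leaves the spread between mice of one time, other transcripts ranked first, with r from −0.64 to 0.74 over all 8939. Among transcripts with a symbol, the 5 highest were Paqr9 (0.63, rank 8 of all), Tmem94 (0.61), Tmem182 (0.59), Adcy5 (0.57), the main adenylyl cyclase of the heart and an enzyme that Gs receptors activate, and Tspan13 (0.57, rank 21). The 5 lowest with a symbol were Ms4a6b (−0.55, rank 11 from the bottom), Lyrm9 (−0.51), Trim55 (−0.48), Col8a2 (−0.46) and Tmem35 (−0.46, rank 54). Bcl6b was at 0.15 and Nrarp at −0.05 on this measure, so their likeness to Crhr2 lay in the differences between time points. When levels were replaced by their ranks over all mice before the time point means were removed, r was lower for the 5 highest. It was 0.36 for Adcy5 and 0.44 for Tspan13. Without replicates 4 and 8 at 0 min, Pearson's r was 0.50 for Adcy5 and 0.48 for Tspan13. The coefficient of variation of Crhr2 within the times was 26.3%, 19.1% and 29.1%, where counting alone gives 18.4%, 30.2% and 23.2%. These values of r therefore rest in part on counting error.

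Other receptors and second messengers of the same kind of signaling were taken from 4 lists of 145 symbols. Of these, 37 had a symbol and 34 were tested, while Hcar2, Bdkrb2 and Pde4a had too few reads. All come from transcripts that the study had selected on these same mice for changing over time, so their share of calls is not independent evidence of a direction. At 45 min, 5 of the 34 passed the test (14.7%), 4 higher and 1 lower, where 0.727% of all 8940 transcripts did, 0.481% higher and 0.246% lower. At 24 h, 16 of the 34 passed against 0 min (47.1%), 6 higher and 10 lower, where 7.68% of all did, 4.44% higher and 3.24% lower.

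Among receptors for hormones and vasoactive signals, 1 of 13 rose and 0 fell at 45 min by edgeR, where 0.481% and 0.246% of all did. At an unadjusted p under 0.05 in edgeR, 3 of the 13 were higher and 4 lower. DESeq2 called 2 higher and limma-voom 0, and neither called one lower. The receptor that rose was Adora2b, the low-affinity adenosine receptor coupled to Gs, from 1.33 ± 0.453 to 3.24 ± 1.58 CPM (log2 fold change 1.27, SE 0.30, edgeR quasi-likelihood adjusted p = 0.0347). Its call was lost in 15 of 24 fits with 1 mouse left out (adjusted p 0.0183 to 0.113). These were all mice at 0 min except replicate 3, replicates 3, 6, 7 and 8 at 45 min and replicates 2, 5, 6 and 7 at 24 h. Adrb1, although all 8 mice at 45 min were below those at 0 min, did not pass (log2 fold change −0.57, SE 0.16, adjusted p = 0.119). It passed without replicate 8 at 24 h (adjusted p = 0.0171).

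At 24 h against 0 min, 3 receptors rose and 3 fell, where 4.44% and 3.24% of all transcripts tested did. Ptafr, the receptor for platelet-activating factor, rose by 1.38 on the log2 scale (SE 0.26), Adora2b by 1.02 (SE 0.29), and Ednra, an endothelin receptor, by 0.84 (SE 0.20). Aplnr, the apelin receptor, fell by 1.09 (SE 0.18), Uts2r, the urotensin II receptor, by 1.54 (SE 0.45), and Ramp1, a partner of the receptor for calcitonin gene-related peptide, by 1.74 (SE 0.47). The median of the 13 was −0.17 at 45 min and −0.20 at 24 h.

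These calls were not equally firm. Adora2b at 24 h was lost in 11 of 24 fits with 1 mouse left out (log2 fold change 0.90 to 1.12), which were those without replicates 1, 2, 4, 5 and 6 at 0 min and 2 to 7 at 24 h. Uts2r was lost in 9 (−1.84 to −1.40), those without replicates 1, 3, 4 and 6 at 0 min and 1, 2, 6, 7 and 8 at 24 h. Ramp1 was lost in 3 (−2.15 to −1.59), those without replicates 4 and 6 at 0 min and 5 at 24 h. Ptafr, Ednra and Aplnr passed in all 24.

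Among 13 G protein and cyclic AMP genes, 0 rose and 1 fell at 45 min by edgeR, where 0.481% and 0.246% of all transcripts did. At an unadjusted p under 0.05 in edgeR, 1 of the 13 was higher and 2 lower. DESeq2 and limma-voom each called 1 higher and 1 lower. The one that fell by edgeR was Rgs4, which speeds the return of Gi and Gq proteins to rest, from 29.3 ± 6.45 to 17.6 ± 3.52 CPM (log2 fold change −0.74, SE 0.15, adjusted p = 0.0093). The cyclase Adcy5 was at 142 ± 15.1 CPM at 0 min and 139 ± 12.7 at 45 min (log2 fold change −0.04, SE 0.10, adjusted p = 0.962).

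At 24 h, 1 of these 13 rose and 7 fell, with a median of −0.46. Of all transcripts tested, 4.44% rose and 3.24% fell, and the 13 come from those that the study had selected for changing over time. Grk5, a kinase that phosphorylates active receptors, rose from 4.68 ± 0.800 to 9.92 ± 2.03 CPM (log2 fold change 1.08, SE 0.15). The genes that fell were Adcy5 (log2 fold change −0.46), the pacemaker channels Hcn2 (−1.20) and Hcn4 (−0.91), whose opening cyclic AMP modulates, Akap5 (−1.80), which anchors protein kinase A, the protein kinase C gene Prkca (−0.70), Rgs7bp (−0.93) and the nuclear receptor Nr4a1 (−1.29). Adcy5 was at 103 ± 9.99 CPM at 24 h, with every mouse below those at 0 min, as for 0.649% of all transcripts tested. The call on Nr4a1 was lost in 5 of the 24 fits, those without replicates 5 and 6 at 0 min and 2, 3 and 5 at 24 h (log2 fold change −1.56 to −1.05).

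**Figure D4:**
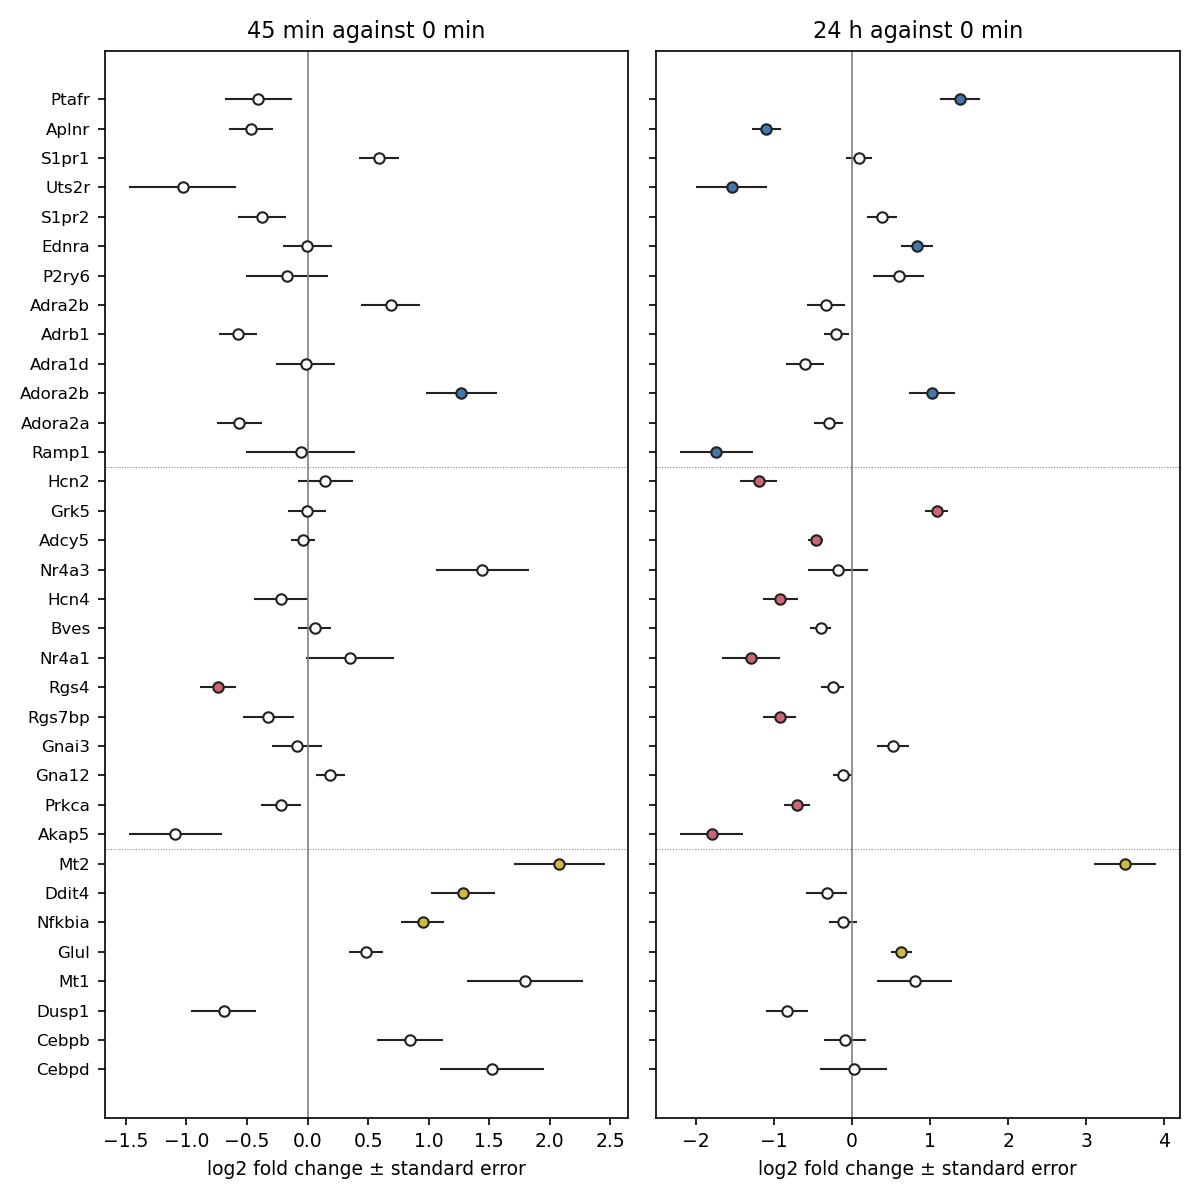
Log2 fold change ± standard error against 0 min of the 34 tested list members at 45 min (left) and 24 h (right). Filled circles passed the test (adjusted p under 0.05), open circles did not, and dotted lines divide receptors (top, blue), G protein and cyclic AMP genes (middle, red) and glucocorticoid-responsive genes (bottom, yellow). At 45 min 5 circles are filled and at 24 h 16.

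Glucocorticoids are the end of the hormone axis that corticotropin-releasing factor starts. Of 21 responsive genes listed, 8 had a symbol and were tested. By edgeR, 0.481% of all transcripts rose at 45 min and 4.44% at 24 h, each against 0 min. At 45 min, 3 rose, the metallothionein Mt2 (log2 fold change 2.08), Ddit4 (1.29), an inhibitor of mTOR signaling, and Nfkbia (0.95), an inhibitor of NF-kB. DESeq2 called 6 of the 8 higher and limma-voom 3, and 7 were higher and 1 lower at an unadjusted p under 0.05 in edgeR. The shares of all transcripts under DESeq2, limma-voom or an unadjusted p were not taken, here or for the other lists. The median of the 8 was 1.12, while Dusp1 was at −0.69 and did not pass. At 24 h, 2 of the 8 were higher than at 0 min, Mt2 (3.50) and Glul (0.63), which makes glutamine, and the median was −0.03. Genes of this kind also answer to other stimuli, such as cytokines and metals.

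Between 45 min and 24 h, 6 of the 34 rose and 13 fell (55.9%), where 9.09% of all 8940 passed, 4.59% higher and 4.51% lower. The largest rise was that of Ptafr (log2 fold change 1.79), followed by Mt2 (1.42) and Grk5 (1.09). Nr4a1 (−1.64), Nr4a3 (−1.62) and Ddit4 (−1.61) fell. Ramp1 also fell (−1.68), but when detected transcripts per library entered the fit it was at −0.59 and did not pass, and its call was lost in 4 of 24 fits with 1 mouse left out, those without replicates 7 and 8 at 45 min and 2 and 5 at 24 h (−2.13 to −1.29). Rgs4, lower at 45 min, was higher again at 24 h (0.49), but that call was lost in 15 of those 24 fits (log2 fold change 0.38 to 0.56). The count was 12 without replicate 2 at 24 h. Crhr2 itself changed by 0.46 in this comparison.

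The summed level of endothelial markers was also lowest at 45 min. Of 15 listed, 6 had a symbol and were tested, and these, like all markers given here, come from transcripts that the study had selected on these mice for changing over time. Their summed level was 162 to 225 CPM at 0 min (median 206), 126 to 158 at 45 min (median 134) and 147 to 199 at 24 h (median 161), with no overlap between 0 min and 45 min. The mean of the sum was 202 CPM at 0 min and 139 at 45 min, and Bcl6b, with means of 49.8 and 25.2, took the largest part of this fall. Bcl6b (log2 fold change −0.98) and Tcf15 (−0.72) fell at 45 min (2 of 6, where 0.246% of all transcripts fell), while Pcdh12 (−0.56), Dll4 (−0.54), Fli1 (−0.25) and Clec14a (−0.15) did not pass. At 24 h against 0 min, Pcdh12 (−0.89) and Bcl6b (−0.64) fell and Clec14a rose (0.42), opposite to Crhr2. Defining markers such as Pecam1 and Cdh5 were not among the transcripts with symbols.

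Per 1000 CPM of these endothelial markers, Crhr2 was 9.56 to 21.2 at 0 min (median 12.8), 5.58 to 10.6 at 45 min (median 7.16) and 4.78 to 12.2 at 24 h (median 8.34). On this scale, also added after the data had been seen, 7 of 8 mice at 45 min and 5 of 8 at 24 h were below all mice at 0 min. The log2 ratio of the means was −0.87 at 45 min, −0.64 at 24 h and 0.22 from 45 min to 24 h, smaller than with CPM but of the same sign. The divisor includes Bcl6b, the transcript with the highest r with Crhr2, and moved in the same direction as Crhr2 in each comparison. A smaller change therefore follows from the division itself. The part of the endothelial markers in the fall of Crhr2 was not tested.

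**Figure D5:**
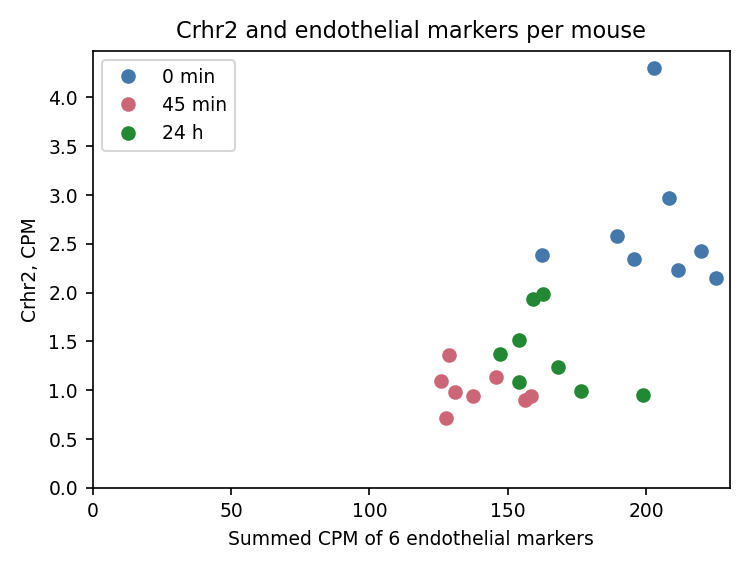
Crhr2 CPM against the summed CPM of 6 endothelial markers in each of the 24 mice, by time point. Mice at 45 min lie at the lower left (126 to 158 CPM of markers), mice at 0 min further right and higher (162 to 225), and mice at 24 h between them or overlapping.

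Markers of other cells changed mainly at 24 h. Of 6 cardiomyocyte markers tested, 1 fell at 45 min, a Tpm1 transcript of low level (8.85 to 2.19 CPM). Their summed level was 16548 to 23511 CPM at 0 min, 17707 to 29243 at 45 min and 6888 to 11935 at 24 h, where Actc1, a cardiac actin, took most of the fall (log2 fold change −1.38). All 7 macrophage markers, all 3 neutrophil markers and all 5 epicardial and mesothelial markers tested were higher at 24 h than at 0 min, where 4.44% of all transcripts were and where the study's selection of the symbols also bears on the count, while 0 of these 15 passed in edgeR at 45 min, where 4 were higher at an unadjusted p under 0.05. DESeq2 called 1 of the 15 at 45 min and limma-voom 0.

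The summed macrophage markers were 62.7 to 97.1 CPM at 0 min, 72.3 to 135 at 45 min and 117 to 258 at 24 h. The epicardial markers were 6.98 to 16.4, 3.67 to 19.4 and 34.7 to 73.0 CPM, and the neutrophil markers 1.20 to 6.07, 1.49 to 18.1 and 7.17 to 49.6 CPM. The part of these cells in the level of Crhr2 at 24 h was not tested.

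Library totals ran from 9887957 to 14091629 counts, and 12972 to 18865 transcripts were detected per library. A single transcript, uc012ath.2, took 0.998% to 35.2% of a library. Leaving it out moved the change of Crhr2 at 45 min to −1.37 and at 24 h to −0.93.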

How the data were processed

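Left ventricular mRNA was sequenced from 24 mice. The authors trimmed reads with cutadapt 1.9.1, mapped them to mm10 with TopHat2 2.1.0 and Bowtie2 2.2.9, and counted them with HTSeq 0.6.0, per the submitters' processing notes and the study's methods. The deposited values are raw counts per UCSC transcript without normalization. The counting mode, its strand setting and the release of the transcript list were not given in the sources used here. Of 24 columns, 0 were left unassigned, and 1 row without an identifier was left out. Samples were grouped by the labelled time, and the p values measure the spread between these mice. The replicate numbers were not taken to pair mice. The surgeon and library pool of each sample, shown in the study, were not assigned here, and their part was not tested.

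Counts were filtered by filterByExpr (at least 10 counts, 15 in total), scaled by TMM and fitted with edgeR 4.0.16 (R 4.3.3) by the quasi-likelihood test with time as its factor over all 24 mice, with Benjamini-Hochberg adjustment over 8940 transcripts and a threshold of 0.05. These held 99.7% to 99.9% of the counts. The test was checked on simulated data. CPM used TMM library sizes, and log2 CPM a pseudocount of 0.5. Alternatives used DESeq2 1.42.0, limma 3.58.1 and sva 3.50.0. Symbols came from the table of 1209 transcripts that the study had selected as changing. The gene, the lists (6 family genes, receptors, cyclic AMP, glucocorticoid and cell markers) and the tests were chosen with earlier results of these data known. Named transcripts are Crhr2, list members, the 5 most and 5 least like Crhr2 by each measure, and those whose mice at 45 min were all below 0 min. Positions are from GENCODE M21 and the promoter from RefSeq (GRCm38.p6). Proteins were not analysed here.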

Additional observations from a re-analysis of the deposited data

Results flagged for a closer look

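Within the 8 mice of a time point, a mouse was singled out when its gap to the nearest other mouse was, as a share of the whole range, above Dixon's 95% critical value. Over 58 named transcripts and 174 groups, 20 were singled out. Chance gives about 5% of groups only for independent values with a normal distribution. The transcripts were measured in the same mice and CPM were not log-transformed, so the count cannot be set against that share. Crhr2 was one of them, with 4.30 CPM in replicate 4 at 0 min against 2.97 in the next mouse. The same mouse stood apart for Adcy5 (173 CPM) and Tmem182 (109 CPM) at 0 min. Both were among the transcripts with the highest r with Crhr2 within time points. This mouse contributes to that r, so its place in them is not a separate observation.

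Replicate 5 at 0 min, which had the lowest Crhr2 of its group, was highest for 7 transcripts, P2ry6 (11.0 CPM), Adora2a (29.7), Hcn2 (135), Gna12 (221), Mt2 (53.4), Cebpd (80.9) and Socs3 (9.39). Without this mouse, the change of Crhr2 was −1.42 at 45 min and −0.99 at 24 h on the log2 scale.

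At 45 min, single mice stood apart for Aplnr (replicate 4, 106 CPM), Nr4a3 (replicate 5, 41.2), Bves (replicate 6, 104), Rgs4 (replicate 6, 25.0), Lyrm9 (replicate 8, 60.0) and, as the lowest, Tmem182 (replicate 8, 73.0). At 24 h they did for Ramp1 (replicate 4, 13.3 CPM), Hcn4 (replicate 8, 18.5), Lyrm9 (replicate 4, 48.9) and, as the lowest, Tmem35 (replicate 6, 2.32).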

How the results depend on the processing

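The fall of Crhr2 kept its direction under every alternative that gave a value. A stricter filter (at least 50 counts in 8 samples) removed it. With each mouse left out, its log2 fold change ran from −1.47 to −1.26 at 45 min, from −1.09 to −0.83 at 24 h and from 0.32 to 0.51 between them. Library totals alone moved the last to 0.81, and division by endothelial markers moved the change at 45 min to −0.87 and that between 45 min and 24 h to 0.22. The count of list members called at 45 min, 5 of 34, was 9 with transcripts detected as a covariate, 13 with 1 surrogate variable and 10 with DESeq2. The shares of all transcripts called under the alternative fits were not taken, so these counts cannot be set against a background. With each mouse left out, the counts were 4 to 6 at 45 min, 12 to 18 at 24 h and 12 to 23 between them. The cause was not tested. By Spearman's rho, 6 of the 10 transcripts most and least like Crhr2 were shared. Over 45 gene and comparison pairs, 132 of the alternative fits lost a call, in 16 of the pairs, and 0 changed sign. Few reads limit Crhr2, with 8 to 17 per library at 45 min.

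The replicate numbers were shared by the time points, but were not taken to pair the mice, since 13 of 24 pairs of mice with one number had a correlation over 0.1, among them all pairs of replicates 1 and 6, and the other 11 did not. Of the 24 mice, 6 correlated best with a mouse of their own number, a hint from the data and not from the design. With the replicate number as a block, Crhr2 was at −1.41, −0.96 and 0.45, and 4, 16 and 16 list members were called. Adora2b at 45 min (adjusted p = 0.0923, against 0.0347 without the block, both edgeR), and Hcn4, Cebpb and Cebpd between 45 min and 24 h, were no longer called.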

Other observations

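Further cell markers that had symbols were compared between time points. They come from transcripts selected by the study on these mice for changing over time, and at 24 h against 0 min 4.44% of all transcripts tested rose and 3.24% fell. Of 4 fibroblast markers tested, at 24 h against 0 min, Col3a1 (log2 fold change 0.75) and Col5a2 (0.72), both fibrillar collagens, rose while Col14a1 (−0.81) fell. Of 3 smooth muscle and pericyte markers, Smtn, a smooth muscle cytoskeletal protein, fell at 24 h (−1.10). Of 5 adipocyte markers, Acaca (0.62), the enzyme that makes malonyl-CoA, and Plin4 (0.61), a coat protein of lipid droplets, rose at 24 h. Of 2 skeletal muscle markers, Mybpc2 (0.70) rose and Casq1 (−1.20) fell at 24 h. At 45 min against 0 min, 0 of these 14 markers passed in edgeR, DESeq2 or limma-voom, and 2 were higher at an unadjusted p under 0.05 in edgeR.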
